A study of Mus musculus with 4 samples.

Results

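The subunits of the mitochondrial respiratory chain were compared between Ly49+ and Ly49- CD8 T cells. A gene was a member if its array symbol began with Nduf, Uqcr, Cox4, Cox5, Cox6, Cox7, Cox8 or Atp5, or was Sdha, Sdhb, Sdhc or Sdhd, and of several probe sets for 1 gene the brightest across the 4 arrays was used. The rule found 90 of the 18193 genes read by a probe set that names 1 gene: 44 named for complex I, 4 for complex II, 8 for complex III, 17 for complex IV and 17 for complex V. Splenic CD8 T cells of wild-type B6 mice were sorted, and their RNA was hybridised to Affymetrix mouse expression arrays. The Ly49+ group (2 arrays) was sorted as CD44+CD122+Ly49+ cells, labelled CD8 Treg, and the Ly49- group (2 arrays) as CD44+CD122+Ly49- cells, labelled conventional memory cells. Both groups therefore shared strain, genotype, tissue and the CD44+CD122+ memory gate, and no treatment, sex or age is given in the labels. Whether replicates are separate animals is not stated, and p-values reflect nothing beyond the spread among these 4 samples, which may be technical.

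The respiratory chain carries electrons from NADH (complex I) and succinate (complex II) through ubiquinone, complex III and cytochrome c to oxygen at complex IV. Complexes I, III and IV pump protons across the inner mitochondrial membrane, and complex V, the ATP synthase, uses that gradient to make ATP. Most subunits are encoded in the nucleus, with a core set encoded by mitochondrial DNA. Memory CD8 T cells are known for their reliance on mitochondrial respiration and for a reserve of respiratory capacity.

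None of the 90 genes passed the test in either direction (limma on log2(intensity + 16), Benjamini-Hochberg adjusted over all 18193 genes, threshold 0.05). Of all genes, 4% passed, 1.93% higher and 2.07% lower in Ly49+ cells. At an unadjusted p under 0.05, 13 members were lower and 0 higher in Ly49+ cells, against 13% of all genes lower and 5.07% higher, and 20.2% and 5.71% of the brighter genes, those at or above the median level. At an adjusted p under 0.1, 5 members were lower (Uqcrfs1, Cox7a1, Ndufv1, Ndufaf5 and Ndufc2) and 0 higher, where 6.9% of all genes passed and 4.13% were lower in Ly49+ cells. Cox7a1 had a Ly49+ mean below the highest control probe set for bacterial transcripts (70.3). Among the 87 members above that level in both groups, 4 were lower at this threshold and 12 at the unadjusted one. Intensities differed little between the cell types: the median log2 fold change (Ly49+ over Ly49-) of the members was -0.045, beside -0.041 over all genes. The quartiles of the members were -0.083 and 0.0027, against -0.12 and 0.030 for all genes. Under a centring of each array on its median the member median was -0.00011 and that of all genes 0.0042.

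The spread between replicate arrays limits the size of a difference between these 4 arrays. Since replicates may be technical, this limit may not extend to the cell types. Of the 90 genes, 87 had means above the highest control probe set for bacterial transcripts (70.3) in both groups, and these are the members for which a size is given. The limma 95% interval of the fold change lay within 1.2-fold in either direction for 77 of the 87 and within 1.5-fold for all 87. Each interval covers 1 gene, is not adjusted for the number of genes and does not include the choice of normalization. The estimate itself was within 1.1-fold for 80 of the 87. Replicate arrays of these genes differed by a median of 0.036 on the log2 scale in Ly49+ and 0.031 in Ly49- cells, and the groups by a median absolute log2 fold change of 0.053. The arrays of the groups did not overlap for 51 of the 90 members, 47 with Ly49+ lower (45 of them among the 87) and 4 with Ly49+ higher, where 48.4% of all genes did not overlap, 35.2% with Ly49+ lower and 13.2% with Ly49+ higher. Among the brighter genes these shares were 57.4%, 45% and 12.4%.

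**Figure D1:**
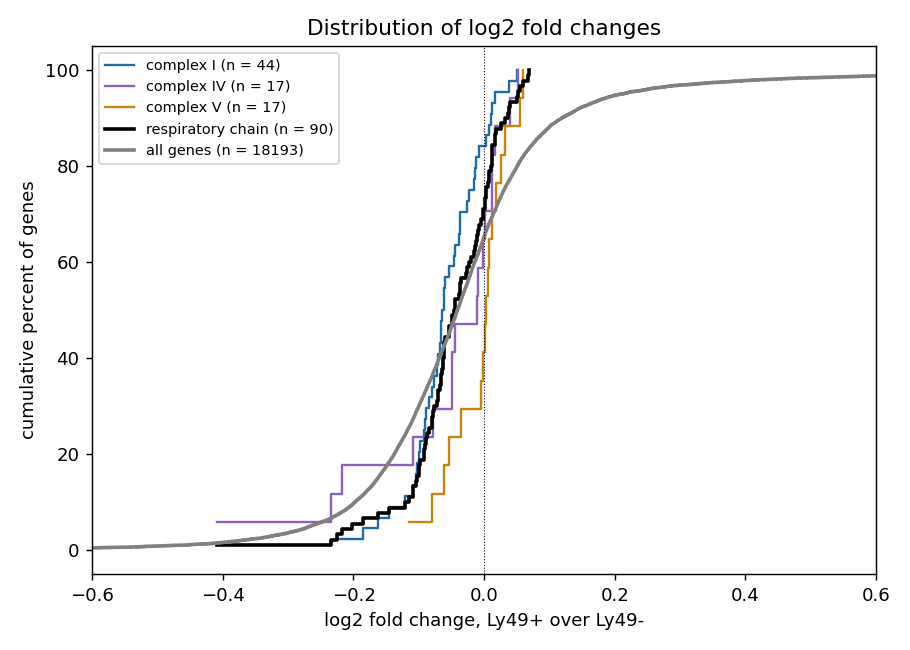
Cumulative percent of genes (vertical axis) by log2 fold change, Ly49+ over Ly49- (horizontal axis, drawn from -0.6 to 0.6), for all 18193 genes in grey, the 90 respiratory chain genes in black and complexes I, IV and V in colour. The black line crosses the grey one near their common median, -0.045 against -0.041, and is steeper; the complex I line lies left of the complex V line.

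Proximal promoters of nuclear respiratory genes are known to hold sites of the factors NRF1 (nuclear respiratory factor 1), GABP of the ETS family, and YY1. RefSeq promoter sequences (GRCm38.p6, 250 bases before and 50 after the annotated start) were matched to 74 of the 90 members, 5 of them with more than 1 promoter. The letters GCGCATGC, the core of the NRF1 site, stood on either strand in 14.9% of these 74 genes, against 3.05% of 27025 genes with a promoter in the table. The ETS core CCGGAAG stood in 25.7% against 9.93%, and the YY1 core AAGATGGC in 13.5% against 3.19%. At least 1 of the 3 was found in 33 of the 74 (44.6%), against 14.9% of all genes. A match is a description of the letters, and the arrays measured no binding. By complex, 16 of 39 genes of complex I, 2 of 3 of complex II, 3 of 5 of complex III, 3 of 12 of complex IV and 9 of 15 of complex V held at least 1 of the 3 motifs. The ETS and YY1 cores share the letters AAG and can overlap, and the NRF1 core can match both strands at neighbouring positions.

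Bases just before the annotated start are shown for the members with the lowest p of complexes III and I (Uqcrfs1 and Ndufv1), for a pair of complex II genes whose values lay in opposite directions (Sdhb and Sdhd), and for complex IV genes with a common and a tissue-restricted isoform. Capitals mark an NRF1 or ETS core on either strand. The stretches are Uqcrfs1 at chr13:30545317-30545396 (- strand), Ndufv1 at chr19:4012756-4012835 (- strand), Sdhb at chr4:140961191-140961270 (+ strand), Sdhd at chr9:50603850-50603929 (- strand), Cox6a1 at chr5:115348959-115349128 (- strand), Cox6b1 at chr7:30626115-30626194 (- strand), Cox6b2 at chr7:4753095-4753174 (- strand), Cox7a1 at chr7:30184091-30184170 (+ strand) and Cox7a2 at chr9:79759854-79759933 (- strand), written 5′ to 3′ on the strand of the gene.
Uqcrfs1: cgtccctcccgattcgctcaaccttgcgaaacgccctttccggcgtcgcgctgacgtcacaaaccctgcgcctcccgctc
Ndufv1: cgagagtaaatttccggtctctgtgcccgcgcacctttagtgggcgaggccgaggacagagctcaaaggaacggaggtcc
Sdhb: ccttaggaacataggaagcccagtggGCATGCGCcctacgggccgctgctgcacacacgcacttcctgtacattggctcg
Sdhd: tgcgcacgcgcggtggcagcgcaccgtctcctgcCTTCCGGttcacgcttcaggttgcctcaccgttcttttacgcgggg
Cox6a1: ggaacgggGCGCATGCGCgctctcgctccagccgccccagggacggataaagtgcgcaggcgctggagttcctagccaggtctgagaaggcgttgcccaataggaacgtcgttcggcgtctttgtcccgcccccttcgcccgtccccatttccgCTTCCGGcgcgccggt
Cox6b1: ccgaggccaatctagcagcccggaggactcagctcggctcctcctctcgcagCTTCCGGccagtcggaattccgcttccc
Cox6b2: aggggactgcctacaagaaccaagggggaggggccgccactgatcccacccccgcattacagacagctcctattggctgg
Cox7a1: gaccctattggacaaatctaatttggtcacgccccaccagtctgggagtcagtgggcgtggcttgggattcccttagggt
Cox7a2: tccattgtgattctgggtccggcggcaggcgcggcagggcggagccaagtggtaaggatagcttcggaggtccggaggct
In these stretches Sdhb carries an NRF1 core, Sdhd and Cox6b1 an ETS core, and Cox6a1 both. The other 5 stretches hold none of the 3 motifs. The Cox6a1 stretch is 170 bases long and the others 80. Its NRF1 core matched at positions -162 and -160 from the start, outside the 80 bases shown for the other genes. After the start, Sdhb also has an ETS core and Ndufaf5 an NRF1 core.

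Complex I, the NADH dehydrogenase, was read slightly lower in Ly49+ cells for most of its genes, with none past the test. Its 44 genes had a median log2 fold change of -0.063, beside -0.041 over all genes and -0.053 over the brighter genes. Of the 44, 37 were below 0 and 7 above, beside 65.3% of all genes and 70.3% of the brighter genes below 0. The groups did not overlap for 29 of the 44, 28 with Ly49+ lower and 1 higher, where 45% of the brighter genes and 35.2% of all genes did not overlap with Ly49+ lower. Of the 44, 8 had an unadjusted p under 0.05, all with Ly49+ lower, which is near the 20.2% of the brighter genes. Without any 1 of the arrays the median stayed between -0.079 and -0.046, and it was -0.031 after quantile normalization and -0.018 with each array centred on its median.

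Among the core subunits, which carry the flavin and iron-sulfur centres and are conserved from bacteria, 6 were measured. On their chosen probe sets all 6 had both Ly49+ arrays below both Ly49- arrays. That order held for 45% of the brighter genes and 35.2% of all genes. A further probe set of Ndufv2 (-0.011) and another of Ndufs7 (-0.056) had groups that overlapped. The other further probe sets of these genes did not overlap. Ndufv1, which binds the flavin and takes electrons from NADH, read 5933 and 6088 in Ly49+ cells, against 6661 and 6798 in Ly49- cells. Its log2 fold change was -0.16 ± 0.042 (SE), with a limma adjusted p of 0.078. Its 2 further probe sets gave -0.18 and -0.17, with both Ly49+ arrays below both Ly49- arrays on each. Ndufv2, the partner of Ndufv1, read 6646 and 6577 in Ly49+ cells, against 7063 and 7140 in Ly49- cells (log2 fold change -0.10, limma adjusted p = 0.22). Ndufs1, the largest iron-sulfur subunit, had a log2 fold change of -0.10, and Ndufs8, Ndufs7 and Ndufs3, of the arm that passes electrons to ubiquinone, had -0.070, -0.060 and -0.039. The median of the 6 was -0.085.

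The other structural subunits of complex I, 30 genes, had a median log2 fold change of -0.045, and 15 of the 30 had groups that overlapped. Ndufc2, a subunit of the membrane arm, read 8113 and 8286 in Ly49+ cells, against 9186 and 8957 in Ly49- cells (log2 fold change -0.15 ± 0.039 SE, limma adjusted p = 0.088). The groups did not overlap on that probe set, but 3 further probe sets of Ndufc2 gave -0.055, -0.088 and -0.0039. Ndufs4, an accessory subunit whose loss causes a mitochondrial encephalopathy in mice, read 5028 and 4962 in Ly49+ cells, against 5377 and 5493 in Ly49- cells (log2 fold change -0.12, limma adjusted p = 0.19). Its further probe sets disagreed, at -0.13, 0.087 and 0.20. At the other end Ndufa12 had a log2 fold change of 0.037, with 7289 and 6850 in Ly49+ cells against 7121 and 6656 in Ly49- cells, so replicate 1 was the higher array of both groups, and its further probe sets gave -0.025, -0.062 and 0.079. Ndufa4, named for complex I and now known as a subunit of complex IV, read 6199 and 6346 in Ly49+ cells, against 6296 and 6177 in Ly49- cells (0.0082). Its hypoxia-induced relative Ndufa4l2 read 97.5 and 95.5 against 104 and 86.7, with groups that overlapped.

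Assembly factors of the Ndufaf type, which help to build complex I and are not part of it, gave the lowest value of the complex and also the highest. Ndufaf5, which modifies a core subunit during assembly, read 1769 and 1837 in Ly49+ cells, against 2076 and 2147 in Ly49- cells. Its log2 fold change was -0.23 ± 0.060 (SE), with a 95% interval from -0.36 to -0.089 and a limma adjusted p of 0.084. Ndufaf8, known from human cells as a partner of Ndufaf5, lay the other way, at 3879 and 3849 in Ly49+ cells against 3666 and 3796 in Ly49- cells (0.051, limma adjusted p = 0.65). That holds for 1 probe set of Ndufaf8: a dimmer one gave -0.045, and their mean 0.0025. Ndufaf6 had a log2 fold change of -0.19, Ndufaf7 -0.10, Ndufaf2 -0.098, Ndufaf1 -0.090, Ndufaf3 -0.078 and Ndufaf4 -0.072. On the chosen probe sets of all 8 the groups did not overlap, 7 with Ly49+ lower and 1 with Ly49+ higher, and the median was -0.094. Of all genes 48.4% did not overlap, and of the brighter genes 57.4%, 45% with Ly49+ lower.

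Complex II, succinate dehydrogenase, is built from 4 nuclear genes and also works in the tricarboxylic acid cycle. Sdha, the flavoprotein that oxidizes succinate, read 10753 and 10699 in Ly49+ cells, against 11446 and 11539 in Ly49- cells (log2 fold change -0.099 ± 0.036 SE, limma adjusted p = 0.18). The groups did not overlap, and the difference amounted to -6.66%. A bright further probe set of Sdha gave -0.073, and 2 dim ones gave 0.087 and -0.00018. Sdhb, the iron-sulfur subunit, read 5485 and 5399 in Ly49+ cells, against 5660 and 5944 in Ly49- cells (-0.092, limma adjusted p = 0.34). Of the membrane anchors, Sdhc had a log2 fold change of -0.028 and Sdhd, the only one of the 4 above 0, had 0.069, and in both the groups overlapped. Sdhd read 5165 and 4781 in Ly49+ cells, against 4644 and 4831 in Ly49- cells, and its further probe set gave 0.0032.

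**Figure D2:**
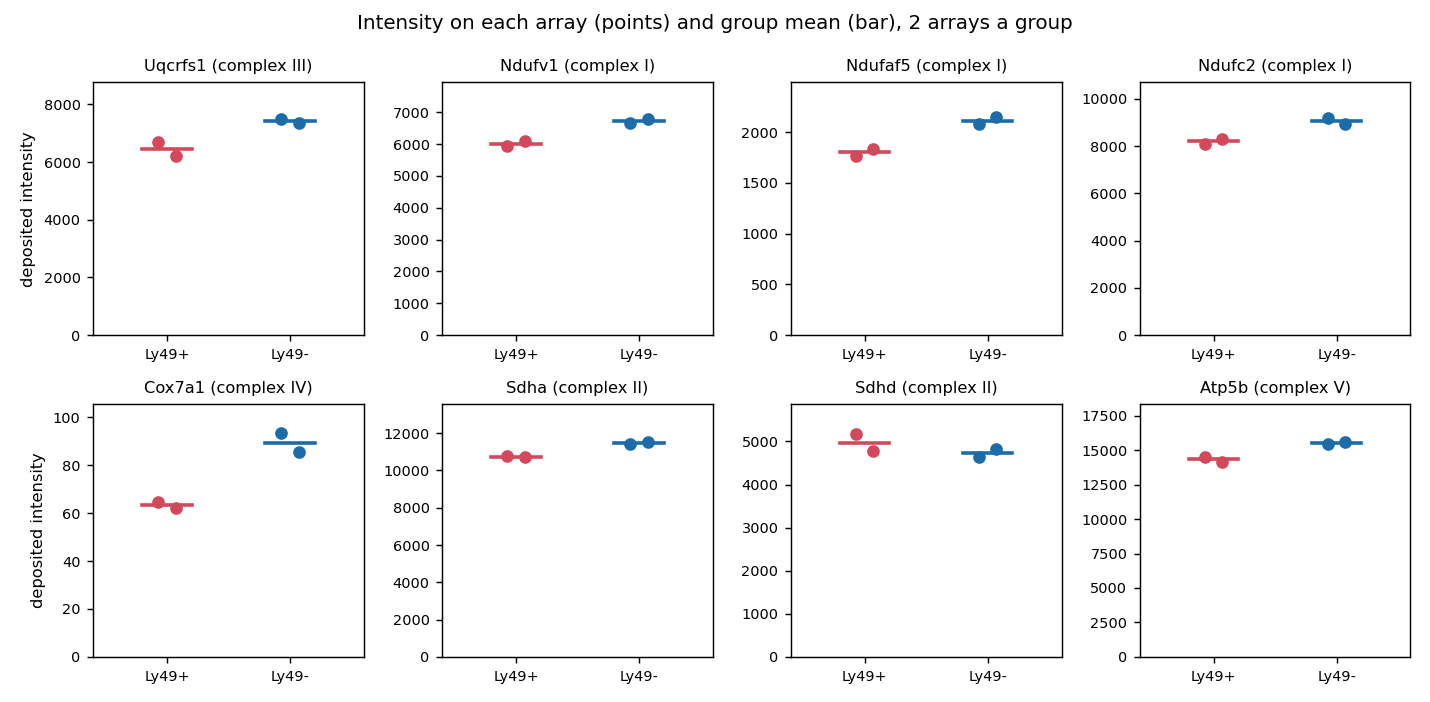
Deposited intensity (vertical axis, from 0, a scale for each gene) of 8 members on each Ly49+ array (red points, left) and Ly49- array (blue points, right), with the group mean as a bar. Both Ly49+ points lie below both Ly49- points for Uqcrfs1, Ndufv1, Ndufaf5, Ndufc2, Cox7a1, Sdha and Atp5b, and the groups overlap for Sdhd.

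Complex III, the cytochrome bc1 complex, held the member with the lowest adjusted p. Uqcrfs1, the Rieske iron-sulfur protein that passes electrons on to cytochrome c1, read 6700 and 6227 in Ly49+ cells, against 7504 and 7357 in Ly49- cells. The groups did not overlap and the Ly49+ mean was -13.0% relative to Ly49- on the log2(intensity + 16) scale (log2 fold change -0.20 ± 0.048 SE, 95% interval -0.31 to -0.093, limma adjusted p = 0.056). Over the alternative settings its adjusted p ran from 0.0085 to 0.366, under 0.05 in 2 of them, and the gene has 1 probe set. The core proteins Uqcrc1 and Uqcrc2 had log2 fold changes of -0.020 and -0.064. Of the small subunits, Uqcrq had -0.087, Uqcr11 -0.070 and Uqcr10 -0.063, while Uqcrh, which helps cytochrome c to dock, had 0.036 and Uqcrb, near the ubiquinone site, 0.067. Each of these had a second bright probe set with the opposite sign, -0.018 for Uqcrh and -0.033 for Uqcrb. The 8 genes had a median of -0.063, beside -0.053 over the brighter genes, and 5 had groups that did not overlap, all with Ly49+ lower. Of the brighter genes 45%, and of all genes 35.2%, did not overlap with Ly49+ lower. The complex III median was -0.024 after quantile normalization and -0.018 with each array centred on its median.

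Complex IV, cytochrome c oxidase, held common subunits close to 0 and others that read lower on both Ly49+ arrays, with none past the test. Cox4i1, a regulatory subunit, read 12578 and 12005 in Ly49+ cells, against 12554 and 12199 in Ly49- cells (log2 fold change -0.010, 95% interval -0.10 to 0.080). Cox6b1, which joins the monomers of the enzyme, read 19378 and 19138 in Ly49+ cells, against 19105 and 19438 in Ly49- cells (-0.0010, 95% interval -0.074 to 0.072). In both genes the arrays of the groups overlapped. Cox5a had a log2 fold change of 0.012, Cox7a2 0.012, Cox8a 0.017 and Cox6a1 -0.049, also with groups that overlapped. A dimmer probe set of Cox6a1 gave -0.10, at 6975 and 6976 in Ly49+ cells against 7752 and 7260 in Ly49- cells with no overlap. Further probe sets of Cox5a, Cox7a2 and Cox8a lay between -0.018 and 0.036. Cox6c read 11514 and 11690 in Ly49+ cells, against 12308 and 12197 in Ly49- cells (-0.079, limma adjusted p = 0.29). Cox5b had -0.045 and Cox7a2l -0.050. On the chosen probe sets of these 3 genes both Ly49+ arrays lay below both Ly49- arrays. The further probe set of Cox6c and some of Cox5b had groups that overlapped. Cox7c varied most between replicates, at 4254 and 3251 in Ly49+ cells against 3959 and 3305 in Ly49- cells, so replicate 1 was the higher array in both groups and the interval was wide (-0.24 to 0.32). A dimmer probe set of Cox7c gave 0.21, also with groups that overlapped.

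Isoforms of complex IV known from muscle, testis or other tissues were read near the control level or had wide intervals. Cox7a1, the heart and skeletal muscle isoform, read 64.5 and 62.3 in Ly49+ cells, against 93.4 and 85.4 in Ly49- cells (limma adjusted p = 0.069). No size is given, since the Ly49+ mean was under the control level of 70.3. The groups did not overlap, while Cox7a2, its common counterpart, read 21561 and 21349 against 21386 and 21159. The testis isoform Cox6b2 read 240 and 266 in Ly49+ cells, against 307 and 293 in Ly49- cells (log2 fold change -0.23, limma adjusted p = 0.30), where Cox6b1 had -0.0010. Cox8c, another testis isoform, had -0.22 (limma adjusted p = 0.34). The muscle isoform Cox6a2 had -0.011 and the lung isoform Cox4i2 0.053, both with groups that overlapped. Cox8b and Cox7b2 had means below the control level in both groups. Over all 17 genes the median was -0.011, with 7 genes (41.2%) whose groups did not overlap, all with Ly49+ lower. That is between the 35.2% of all genes and the 45% of the brighter genes that did so. Of the 14 genes above the control level in both groups, 5 did not overlap. Leaving out Ly49- replicate 2 gave a median of -0.085, leaving out Ly49+ replicate 1 gave -0.052, and leaving out Ly49+ replicate 2 gave -0.034. Leaving out Ly49- replicate 1 gave -0.013.

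Complex V, the ATP synthase, lay at 0 as a whole, with a median log2 fold change of 0.0029 over 17 genes, 7 below 0 and 10 above. Below 0 were 41.2% of its genes, against 65.3% of all genes and 70.3% of the brighter genes. The medians of all genes and of the brighter genes were -0.041 and -0.053, so 0 was above the typical gene. The lowest values of complex V were in the catalytic head, F1. Atp5b, its catalytic beta subunit, read 14535 and 14173 in Ly49+ cells, against 15474 and 15626 in Ly49- cells (log2 fold change -0.12 ± 0.034 SE, limma adjusted p = 0.11). The groups did not overlap. Its partner Atp5a1, the alpha subunit, read 17997 and 18090 in Ly49+ cells, against 17722 and 18326 in Ly49- cells (0.0018, 95% interval -0.075 to 0.078). Of its 2 further bright probe sets, one gave -0.060, at 13434 and 13255 in Ly49+ cells against 13904 and 13926 in Ly49- cells with no overlap, and the other gave -0.028. Of the rotor stalk, Atp5c1 (gamma) had -0.080 and Atp5d (delta) -0.062, with Ly49+ lower on both arrays, while Atp5e (epsilon) had 0.060 with Ly49+ higher on both arrays. Atp5e read 16308 and 16314 in Ly49+ cells, against 15324 and 15983 in Ly49- cells (limma adjusted p = 0.43).

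The proton-driven ring of complex V is made of subunit c, which Atp5g1, Atp5g2 and Atp5g3 encode as the same mature protein, and they had log2 fold changes of 0.017, 0.055 and 0.0029. On its bright probe set Atp5g2 had groups that did not overlap, at 11103 and 10836 in Ly49+ cells against 10628 and 10484 in Ly49- cells, while a dim one gave -0.12. The 9 genes of the stalk and membrane part ran from -0.053 for Atp5pb, the stator stalk subunit b, to 0.032 for Atp5l, subunit g. The complex V median was -0.0071 without Ly49+ replicate 1 and -0.019 without Ly49- replicate 1, against 0.017 without Ly49+ replicate 2. It was 0.048 with each array centred on its median and -0.020 when a gene's probe sets were averaged, so it has no settled direction.

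**Figure D3:**
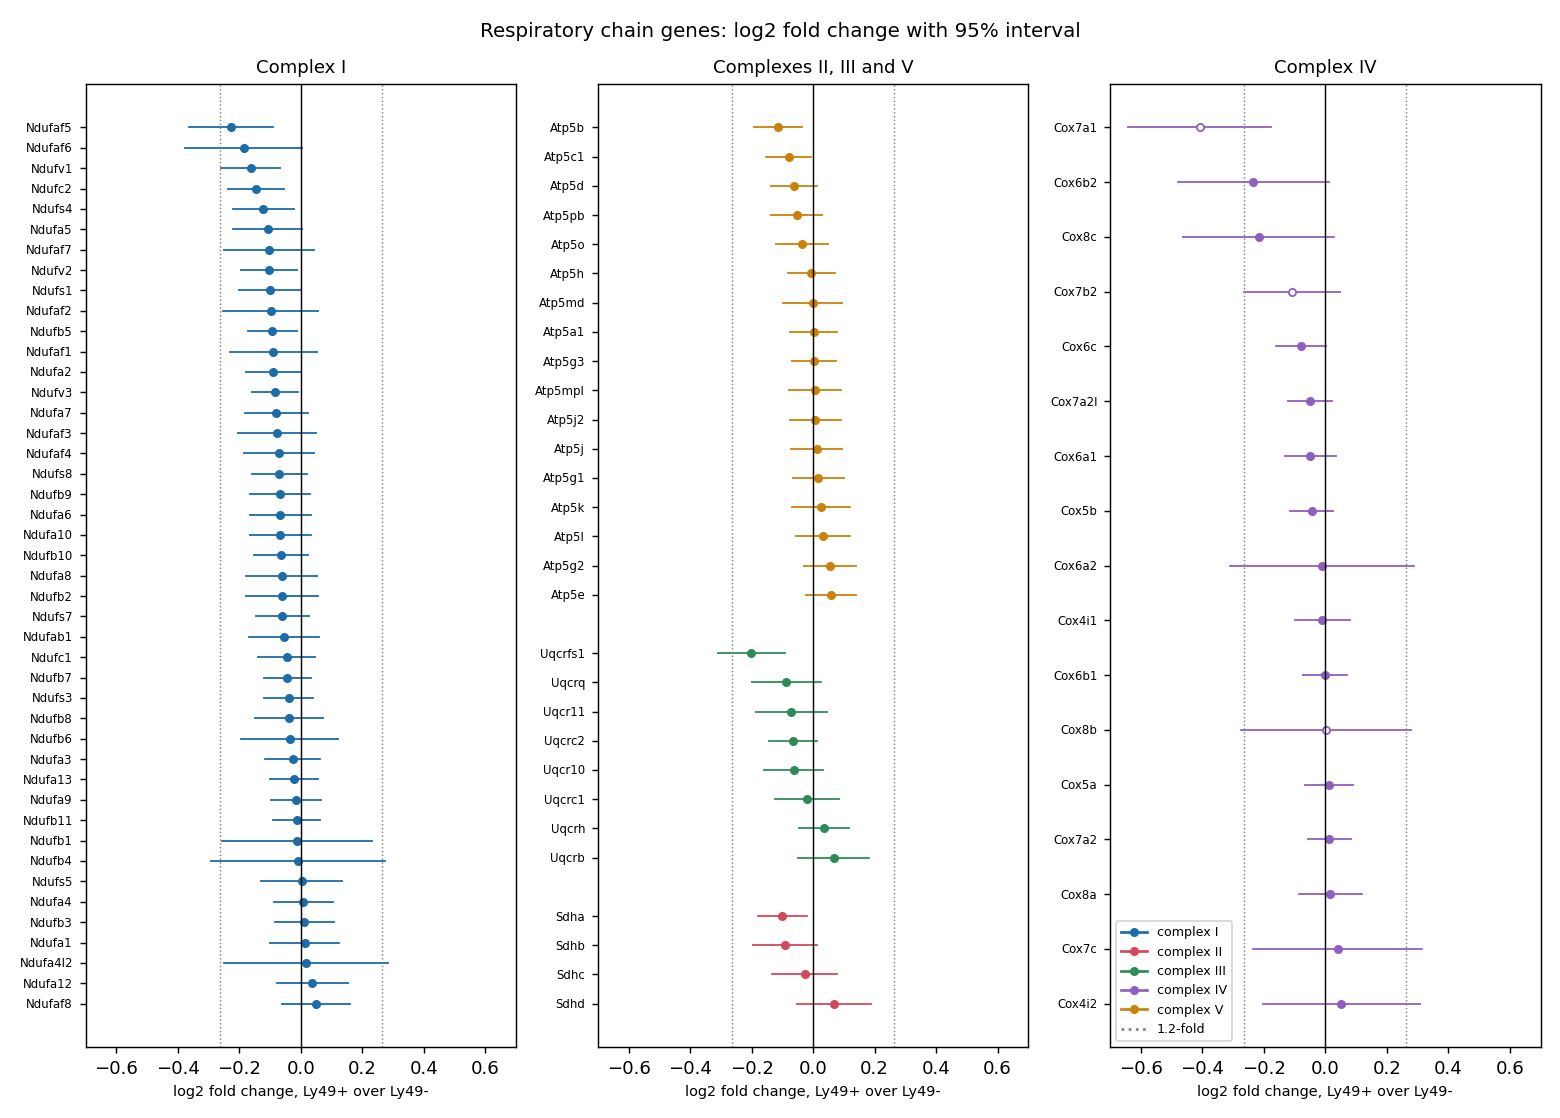
Log2 fold change (horizontal axis, Ly49+ over Ly49-) with its limma 95% interval for each of the 90 genes, in 3 panels by complex and sorted within each complex; open circles mark the 3 complex IV genes below the control level in at least 1 group, and dotted lines mark 1.2-fold. Most complex I points lie left of 0, most complex V points close to it, and 77 of the 87 intervals of genes above the control level stay between the dotted lines.

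Further probe sets gave a second reading for many members. The 90 genes had 179 probe sets, with 39 genes read by 1 and 51 by several. Of the 89 further probe sets, 82 were above the control level in both groups, as were the chosen probe sets of their genes. Their log2 fold change had the sign of the chosen probe set in 63 cases and the opposite sign in 19, with a median gap of 0.029. Their median was -0.056. With every probe set tested on its own, none of the 179 passed, where 2.14% of the 34945 probe sets naming 1 gene did. Atp5j2 had the highest of these values, 0.28 on a dim probe set (389 and 373 in Ly49+ cells, against 338 and 284 in Ly49- cells), beside 0.0076 on its chosen one. Another 10 probe sets name a member beside another gene or pseudogene, and none of them passed. A probe set shared by Ndufb4, Ndufb4b and Ndufb4c read 7693 and 8018 in Ly49+ cells, against 8018 and 8215 in Ly49- cells, whereas the only probe set naming Ndufb4 alone was dim (73.3 to 88.7 over the 4 arrays). Of the chosen probe sets of the 90 genes, 17 were of kinds that may also detect other transcripts, 7 ending in _x_at and 10 in _s_at.

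**Figure D4:**
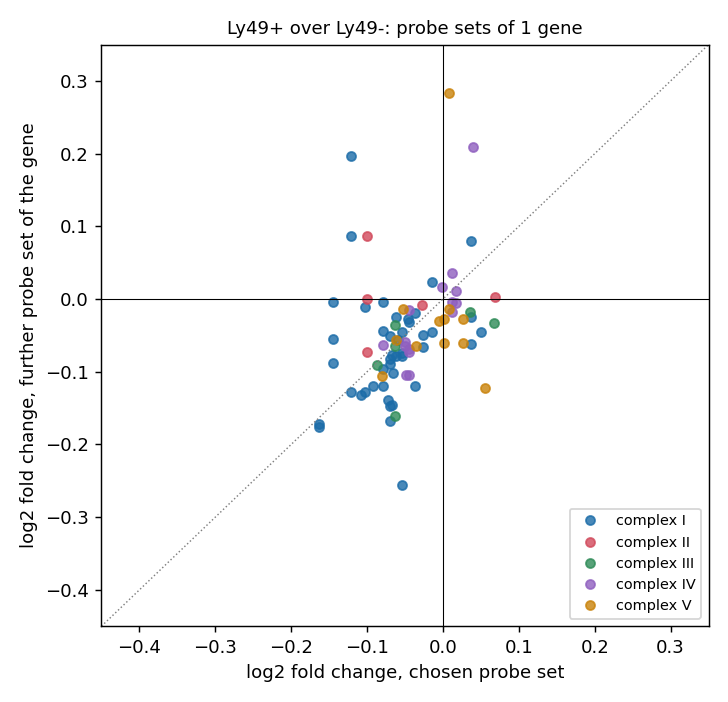
Log2 fold change (Ly49+ over Ly49-) of each of the 82 further probe sets (vertical axis) against that of the chosen probe set of the same gene (horizontal axis), coloured by complex, with the line of equality dotted. Points gather at the lower left, where 2 further probe sets of Ndufv1 stand at the lowest chosen value, while probe sets of Ndufs4 (0.20), Cox7c (0.21) and Atp5j2 (0.28) stand apart above 0.

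Other mitochondrial genes, from lists that do not share members with the rule, mostly gave small differences, and some lists lay further below 0. None of the 16 measured genes for electron carriers, coenzyme Q synthesis and ATP exchange passed, with a median of -0.080. In this list Cycs, which encodes cytochrome c, had a log2 fold change of 0.10 (6709 and 6493 in Ly49+ cells against 6028 and 6287 in Ly49- cells, limma adjusted p = 0.29), Cyc1, cytochrome c1 of complex III, had -0.083, and Atpif1, the inhibitor of ATP synthase run in reverse, had -0.18 (limma adjusted p = 0.092). None of 40 other assembly factors passed (median -0.089), none of 17 genes of the tricarboxylic acid cycle (-0.097), none of 18 of fatty acid oxidation (-0.077) and none of 76 mitochondrial ribosomal proteins (-0.075). At an unadjusted p under 0.05 these lists had 3 of 16, 11 of 40, 8 of 17, 4 of 18 and 17 of 76 genes, where 18.1% of all genes and 25.9% of the brighter genes had one. Below 0 were 94.1% of the tricarboxylic acid cycle genes, 90.8% of the mitochondrial ribosomal protein genes and 87.5% of the carrier list. The assembly factors had 72.5% and fatty acid oxidation 72.2%, against 71.1% of members and 70.3% of brighter genes. Both Ly49+ arrays lay below both Ly49- arrays for 14 of 17 cycle genes and 54 of 76 ribosomal protein genes. That order held for 47 of the 90 members and 45% of the brighter genes. Of the 21 measured import genes, Tomm40, the channel of the outer membrane, was lower, at 401 and 436 in Ly49+ cells against 618 and 707 in Ly49- cells (log2 fold change -0.64, limma adjusted p = 0.011). The other 20 did not pass, and the list median was -0.040.

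The regulators of mitochondrial gene expression did not pass either, 0 of 18, with a list median of -0.059 and 4 genes at an unadjusted p under 0.05. Nrf1 had a log2 fold change of 0.062, Gabpa, the DNA-binding chain of GABP, 0.072, and Tfam, which packages mitochondrial DNA, -0.019. Ppargc1a, the coactivator that drives mitochondrial biogenesis, had means below the control level in both groups, and its relative Ppargc1b had -0.13 (limma adjusted p = 0.37). Tfb1m, which modifies mitochondrial ribosomal RNA, had -0.26 (limma adjusted p = 0.089). The 1 subunit encoded by mitochondrial DNA that the array named alone, ND5 of complex I, read 17541 and 17202 in Ly49+ cells, against 18032 and 16374 in Ly49- cells (0.016, limma adjusted p = 0.91), with groups that overlapped. Cytosolic ribosomal protein genes, measured for comparison, had a median of -0.0037 over 47 genes, and 1 passed, the paralogue Rpl39l (-0.72).

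**Figure D5:**
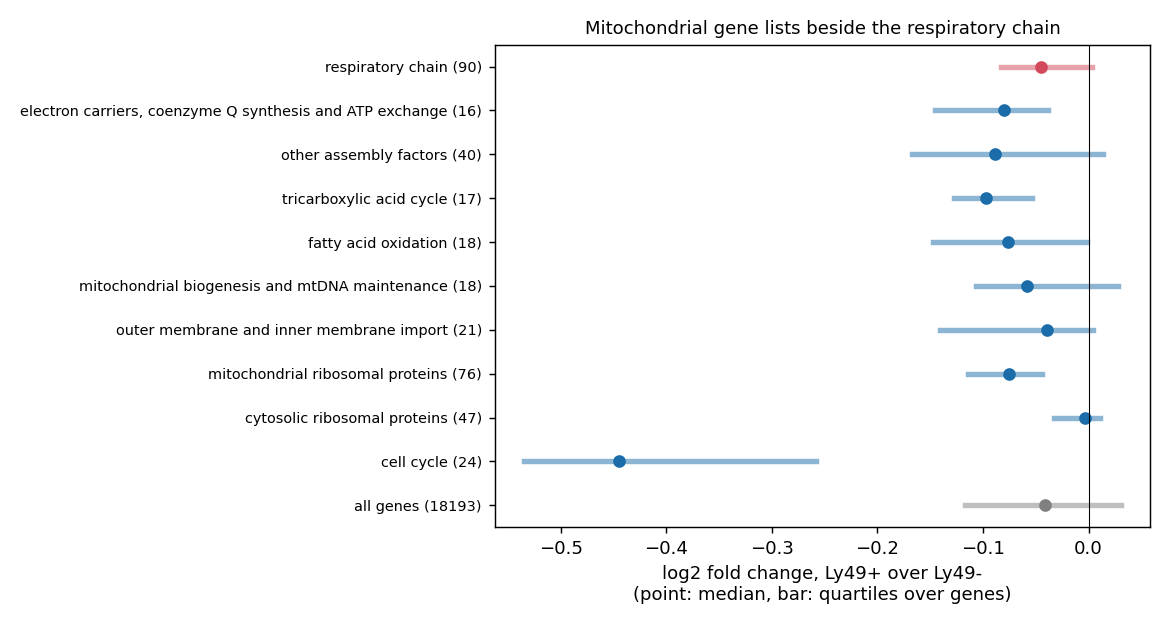
Median (point) and quartiles over genes (bar) of the log2 fold change, Ly49+ over Ly49-, for the respiratory chain in red, other lists in blue, with the number of genes in brackets, and all genes in grey. The mitochondrial lists have medians between -0.097 and -0.040, the respiratory chain -0.045 and all genes -0.041, and the cell cycle list stands apart at -0.44.

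Some genes listed as markers of other cell types differed on the same arrays, and their part in the small differences above was not tested. In bulk RNA, expression of such a gene by the sorted CD8 cells and by other cells cannot be told apart. Nor can fewer cells of a type and less RNA per cell. Of 15 myeloid markers 11 were higher and 2 lower, with summed intensities of 25021 and 27284 in Ly49+ cells against 16736 and 16708 in Ly49- cells, and 1 marker (Itgam) below the control level. Of 11 measured NK-cell markers 7 were higher and none lower. The 11 summed to 32448 and 33505 in Ly49+ cells against 19888 and 22409 in Ly49- cells. Log2 fold changes were below 0 for 3 of them, the lowest -0.95, and 1 was lower at a limma adjusted p under 0.1. Ncr1 and Klrb1b were below the control level over the 4 arrays, and 8 of the 11 were above it in both groups. The 11 B-cell markers summed to 18825 and 20119 in Ly49+ cells against 18933 and 19975 in Ly49- cells, 1 higher and 1 lower, with Pax5, Cr2 and Fcer2a below the control level. A sum is weighted to the brightest markers, and 8 of the 11 had log2 fold changes above 0 and 3 below (median 0.11). The 8 dendritic-cell markers summed to 5701 and 5931 in Ly49+ cells against 6326 and 6268 in Ly49- cells, 1 higher and 1 lower, with Cd209a below the control level. Most of these 8 went against the sum: 5 had log2 fold changes above 0 and 3 below (median 0.23). The groups did not overlap for 5 with Ly49+ higher and 2 with Ly49+ lower. The 5 erythroid markers summed to 1381 and 1357 in Ly49+ cells against 1188 and 1555 in Ly49- cells, with none passing, Hba-a1 below the control level in both groups and Epb42 below it in Ly49- cells. The T-cell markers were present, at 152979 and 152758 in Ly49+ cells against 155150 and 154959 in Ly49- cells, and none of 11 passed. Of 24 cell cycle genes 17 were lower and none higher, with sums of 68751 and 66182 in Ly49+ cells against 80723 and 81619 in Ly49- cells. Actb had 3′ over 5′ signal ratios of 1.26 and 1.29 in Ly49+ cells against 1.37 and 1.34 in Ly49- cells, and Gapdh of 1.71 and 1.70 in Ly49+ cells against 1.74 and 1.75 in Ly49- cells. Array medians ranged from 188.5 to 190.4, and precision is limited by having 4 arrays.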

How the data were processed

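RNA of 4 sorted samples was measured on Affymetrix mouse arrays. Per the labels' protocols, RNA was extracted with an RNeasy kit and labelled with biotin. The values deposited by the authors are linear intensities per probe set (8.32 to 43959), read as such from the values; how they were normalised is not given in sources used here. Of 45101 probe sets, 34945 name 1 gene by the platform annotation of the array. The brightest on mean log2(intensity + 16) was kept for each of 18193 genes. Differences were tested in R 4.3.3 by limma 3.58.1, using lmFit, then eBayes with an intensity trend, on a design with group alone (residual degrees of freedom 2, prior 6.70); data were handled by data.table, version 1.17.8, and the fit was tested on simulated data. RefSeq (GRCm38.p6) matched all 90 members and changed 0 symbols. Named genes were, per complex, the 3 highest and 3 lowest changes above the control level, all Sdh genes, Ndufaf genes, tissue isoforms with their counterparts, and list members past the threshold; others, and those named beside them to complete a complex or list, were picked with values in view. The members and lists were chosen with earlier results of these data known. Alternatives were quantile normalization, median centring, pseudocounts of 1 and 64, brighter genes, the mean of probe sets, no _x_at or _s_at probe sets, no trend, robust estimation, the replicate number as a block, a threshold of 0.1, complexes by known membership, and omission of single arrays, with the remaining array assumed as variable as the other group's.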

Additional observations from a re-analysis of the deposited data

How the results depend on the processing

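No respiratory chain gene was called higher under any of the 15 alternatives tried. The count of genes called lower was 0 in the fit as reported and 0 under the other 12 alternatives; it was 5 at an adjusted p under 0.1 (6.9% of all genes called), 5 with the replicate block and 1 with a robust spread (Uqcrfs1, adjusted p = 0.041). The block called Uqcrfs1 (adjusted p = 0.0085), Ndufaf5 (0.029), Ndufv1 (0.030), Cox7a1 (0.032, with a Ly49+ mean below the control level) and Ndufc2 (0.041), while calling 8.39% of all genes. The replicate numbers are not stated to pair samples, and with 2 numbers the check of the pairing is 1 value: deviations of same-numbered arrays from their group means correlated at 0.24 over 18193 genes. Leaving out 1 array gave 0 calls each time, with the median log2 fold change between -0.053 and -0.035 for all members, -0.079 and -0.046 for complex I, -0.079 and -0.041 for complex II, -0.064 and -0.051 for complex III, -0.085 and -0.013 for complex IV, and -0.019 and 0.017 for complex V. Centring each array on its median moved the median to -0.00011 for all members, -0.018 for complex I, -0.018 for complex III, 0.034 for complex IV and 0.048 for complex V, and quantile normalization to -0.031 for complex I and -0.024 for complex III. The median of all genes was 0.0042 with centring, which adds 1 shift to every gene, and -0.0098 with quantile normalization, which moved genes unequally (Ndufaf2 to -0.026, Atp5b to -0.11). Of 42 named genes under the alternatives, 14 changed sign in at least 1, none of them called, all with log2 fold changes of at most 0.067 in size. Differences of a few percent are at the limit of 2 arrays a group.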
